A study of Mus musculus with 2 samples.

Results

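The keratins are the intermediate filament proteins of epithelial cells, and their genes were compared here between a three-dimensional skin model built from Itih5 knockout mouse cells and a model built from wildtype mouse cells. Members were all probe sets whose platform annotation gives exactly 1 symbol made of Krt followed directly by a digit, so that Krtap, Krtcap and Krtdap genes were not included. The rule found 54 of 33793 probe sets on the array, which stand for 53 genes, with Krt18 measured by 2 probe sets. A further 2 probe sets carry a keratin symbol together with a second symbol (Krt5 with Krt6a, and Gm5478 with Krt6b), and no value of them is given. Krt5, the basal partner of Krt14, is therefore not among the members.

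Each model was measured on 1 array at day 7, and the genotypes are given as Itih5 knockout and wildtype. Both models hold epidermal keratinocytes and dermal fibroblasts, grown from the skin of untreated adult mice of the same genotype and passaged serially in culture. The sources used here do not say how many animals gave cells or which part of Itih5 was removed. The Itih5 probe set read 30.4 in the knockout model, against 29.8 in wildtype, below the expression threshold in both, so it checks neither label. As each group is 1 array, differences have no replicate check and no p-values were made. Every value below describes these arrays, and the number of arrays limits the precision.

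Keratins form filaments as obligate pairs of a type I and a type II chain. Basal keratinocytes make the Krt5 and Krt14 pair, and cells that leave the basal layer of the epidermis switch to Krt1 and Krt10. Wounded or rapidly growing epidermis adds Krt6a, Krt6b, Krt16 and Krt17, single-layered epithelia use Krt8 and Krt18, and the hair follicle and hair shaft have a large set of their own. In RefSeq assembly GRCm38.p6, 27 of the 53 genes lie on chromosome 11, which holds the type I cluster, and 26 on chromosome 15, which holds the type II cluster and Krt18.

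Promoters are shown for 3 keratins whose differences are the subject of the results: Krt13, with the largest difference, Krt10, a keratin of suprabasal epidermis, and Krt8, the 1 member at least 2-fold higher. Each window runs from 250 bases before to 50 bases after a gene start in RefSeq (GRCm38.p6), all on the minus strand. Capitals mark matches on either strand to the letters TATAAA, a form of the TATA box, or TGANTCA, a loose form of the AP-1 motif in which N is any base. The windows of Krt13 are chr11:100120528-100120827 (first line) and chr11:100121517-100121816 (second line), that of Krt10 is chr11:99389315-99389614 and that of Krt8 is chr15:102004293-102004592.
Krt13: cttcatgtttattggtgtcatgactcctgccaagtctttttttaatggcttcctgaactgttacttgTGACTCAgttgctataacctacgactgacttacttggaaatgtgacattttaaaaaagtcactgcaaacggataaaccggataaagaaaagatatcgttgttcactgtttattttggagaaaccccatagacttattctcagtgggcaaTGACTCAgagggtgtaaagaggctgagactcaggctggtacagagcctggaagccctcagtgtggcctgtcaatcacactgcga
Krt13: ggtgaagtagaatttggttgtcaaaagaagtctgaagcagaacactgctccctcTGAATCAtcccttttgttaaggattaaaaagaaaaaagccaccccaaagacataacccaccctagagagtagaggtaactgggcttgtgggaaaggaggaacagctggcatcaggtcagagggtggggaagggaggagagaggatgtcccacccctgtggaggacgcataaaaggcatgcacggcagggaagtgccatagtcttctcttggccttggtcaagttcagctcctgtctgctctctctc
Krt10: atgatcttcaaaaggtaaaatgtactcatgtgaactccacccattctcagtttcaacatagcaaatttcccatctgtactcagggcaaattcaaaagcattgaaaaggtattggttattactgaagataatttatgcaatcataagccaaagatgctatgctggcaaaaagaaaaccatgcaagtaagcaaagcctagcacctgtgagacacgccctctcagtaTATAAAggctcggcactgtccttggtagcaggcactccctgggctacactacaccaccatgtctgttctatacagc
Krt8: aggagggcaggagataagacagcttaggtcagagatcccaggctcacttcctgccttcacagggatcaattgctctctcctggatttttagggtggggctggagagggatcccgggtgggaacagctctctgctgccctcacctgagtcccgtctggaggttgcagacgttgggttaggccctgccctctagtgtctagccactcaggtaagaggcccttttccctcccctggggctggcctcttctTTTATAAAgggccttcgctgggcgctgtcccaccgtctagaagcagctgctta
Both Krt13 windows held AP-1 letters in this loose form, and neither held TATAAA. The first had 2 matches, both TGACTCA, and the second had 1, TGAATCA. The Krt10 window had TATAAA beginning 26 bases before the gene start. The Krt8 window had 2 overlapping matches, 1 on each strand, beginning 3 and 1 bases before the start. Among the 36 promoter windows found for 35 of the 53 genes, 19 (52.8%) held TATAAA, against 13.6% of all 32851 windows of the same length. AP-1 letters were in 2 (5.56%) of the keratin windows and 7.81% of all windows, and both of the keratin windows were those of Krt13. GC box letters (GGGCGG) were in 2 (5.56%) of the keratin windows and 35.7% of all. These matches are letters only and say nothing of binding.

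The deposited intensities had lost their decimal point in nearly all values, and the point was restored from the digits before any comparison. For 41 of the 54 probe sets only 1 place was possible on both arrays, 12 were restored with a probability of at least 0.95, and Krt16 was undecided. Of the 52 restored genes, 33 were expressed, meaning that the higher of their values was at or above 47.3, the median intensity over all probe sets. The lowest intensities mark the background, with 5th percentiles of 21.4 on both arrays. Each difference is the log2 intensity in the knockout model minus that in wildtype.

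In the knockout model both basal keratins and 4 of the 6 expressed suprabasal keratins read lower by 2-fold or more. Of those 4, Krt10 and Krt78 are from the list for the epidermis and Krt12 and Krt13 from that for internal stratified epithelia. Krt8 read higher, and the hair keratins were near background on both arrays. Of the 33 expressed keratins, 9 (27.3%) were lower by 2-fold or more in the knockout model, whereas 3.34% of all 12584 expressed genes were. The 9 were Krt13, Krt23, Krt78, Krt12, Krt6b, Krt10, Krt14, Krt90 and Krt15. Krt8 alone was at least 2-fold higher (3.03%), beside 3.81% of all expressed genes. The median difference of the expressed keratins was -0.18, beside 0.04 over all expressed genes. Of the 33, 21 passed the threshold in both models, and 8 of these 21 were at least 2-fold lower. The sign of the other 12 is fixed by the filter, as 7 passed in wildtype only and read lower and 5 passed in the knockout model only and read higher. Differences below 0, seen for 22 keratins and for 45.7% of all expressed genes, are therefore given as a description.

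Of 16 expressed basal, suprabasal, stress and simple keratins, 8 were at least 2-fold lower and 1 was higher, with a median difference of -0.92. Of 15 expressed hair keratins, 0 were 2-fold apart in either direction, and their median was 0.030. Hair keratins reached no more than 68.8 on either array, below 2-fold over the threshold, so their counts cannot be set against those of the brighter classes.

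**Figure D1:**
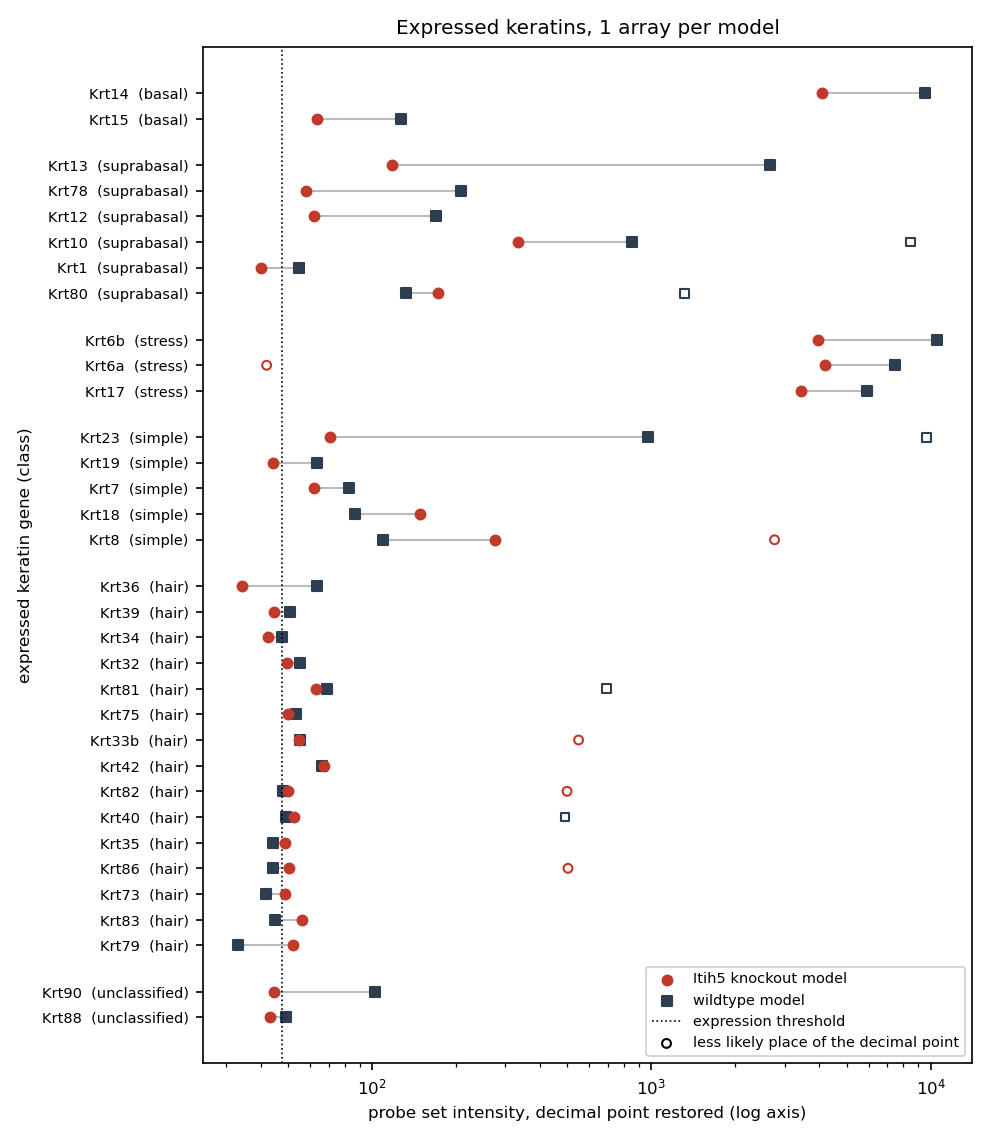
Intensities of the 33 expressed keratins (log axis), a row for each gene, ordered by class and then by difference, with filled circles for the Itih5 knockout model and filled squares for the wildtype model; open symbols are less likely places of the decimal point and the dotted line is the expression threshold of 47.3. The gaps are widest for Krt13 (118 in the knockout model, 2666 in the wildtype model) and Krt23 (70.3 and 970), and the hair keratins cluster at the threshold.

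These are RNA mixtures of at least 2 cell types, so fewer keratinocytes and less keratin RNA per keratinocyte cannot be told apart. Of 15 keratinocyte markers that are not keratins, 9 were restored and expressed. All 9 read lower in the knockout model, by 2-fold or more for 3, and their median difference was -0.89, while their intensities summed to 13048 in the knockout model, against 27975 in wildtype. All 10 expressed dermal fibroblast markers read higher, 3 at least 2-fold, with a median of 0.87, and the 11 restored ones summed to 13686 and 8866. By 2-fold or more, 3.34% of all expressed genes were lower and 3.81% higher, and 45.7% had differences below 0. The part of these shifts in the keratin differences was not tested.

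Of the basal keratins, Krt14 and Krt15 were both lower. Krt14, the type I chain of the basal layer and the target of dominant mutations in epidermolysis bullosa simplex, read 4076 in the knockout model, against 9538 in wildtype, 2.34-fold lower (log2 difference -1.23). Krt15, a type I keratin of basal cells and of the hair follicle bulge, read 63.2 in the knockout model, against 127 in wildtype. Its difference of -1.01, or 2.01-fold, lies just past the 2-fold line. Each of them had 1 possible place of the decimal point.

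Of 12 suprabasal genes, 6 were expressed, and 4 of the 6 were at least 2-fold lower, with a median of -1.41. This count joins 2 lists. Of the 4 expressed suprabasal keratins of the epidermis, 2 were at least 2-fold lower (Krt10 and Krt78), with a median of -0.91 over the 4. The other 2 genes, Krt13 and Krt12, are from the list for internal stratified epithelia, and both were at least 2-fold lower. Krt13, which pairs with Krt4 in the upper layers of oral and oesophageal epithelium, read 118 in the knockout model, against 2666 in wildtype, with 1 possible place on each array. It was 22.7-fold lower, a difference of -4.50, and the knockout reading was 4.41% of the wildtype one. Its type II partner Krt4 was in the background of both models, with 31.6 in the knockout model, against 30.5 in wildtype.

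Krt10, the type I chain of spinous and granular layers, read 333 in the knockout model, against 850 in wildtype, 2.55-fold lower (difference -1.35). The wildtype digits also allow 8498, with a probability of 0.0033, and at that place too Krt10 would be lower in the knockout model. Krt1, the chain that pairs with Krt10, was close to background, with 39.8 in the knockout model, against 54.7 in wildtype. Only the wildtype value passed the threshold, so no fold is given.

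Krt78, a type II keratin found in differentiated layers, read 58.1 in the knockout model, against 209 in wildtype, 3.59-fold lower (difference -1.84). Krt12, best known from the corneal epithelium, read 61.6 in the knockout model, against 169 in wildtype, 2.75-fold lower. Both had 1 possible place of the point, and both knockout values were not far above the threshold.

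Krt80, a type II keratin of differentiating epithelia, was the 1 expressed suprabasal member that read higher. It had 172 in the knockout model, against 132 in wildtype, a difference of 0.39. Its direction depends on the decimal point, since a wildtype value of 1318, with a probability of 0.0071, would make it lower. The 6 other suprabasal genes were below the threshold in both models. Krt2 and Krt77 of the upper epidermis and Krt9 of palms and soles were among them, as were Krt24, Krt4 and Krt76 of the list for internal stratified epithelia. Their values spanned 31.6 (Krt4) to 41.2 (Krt9) in the knockout model and 30.5 (Krt4) to 43.0 (Krt9) in wildtype.

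All 3 restored stress keratins read lower, 1 by 2-fold or more, and their median difference was -0.84. Krt6b, a type II keratin induced in wounds, read 3943 in the knockout model, against 10553 in wildtype, 2.68-fold lower (difference -1.42). Krt6a, its near-identical neighbour, read 4184 and 7469, 1.79-fold lower (difference -0.84). A knockout value of 41.8 is also possible for Krt6a, with a probability of 0.0029, and is lower as well. Because the Krt6 genes are closely similar in sequence, and 2 further probe sets pair them with other symbols, the probe sets may not separate them fully.

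Krt17, a type I keratin of wounds and of the hair follicle, read 3440 in the knockout model, against 5925 in wildtype, 1.72-fold lower (difference -0.78), with 1 possible place. Krt16, the usual partner of the Krt6 chains, had 4 possible pairs of values and is not counted. The likeliest pair, with a probability of 0.75, was 153 in the knockout model, against 424 in wildtype. The pair 1534 and 4245 has the same difference of -1.47 and a probability of 0.091, the pair 1534 and 424 would be higher in the knockout model (difference 1.85, probability 0.15), and the pair 153 and 4245 had a probability of 0.0066.

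**Figure D2:**
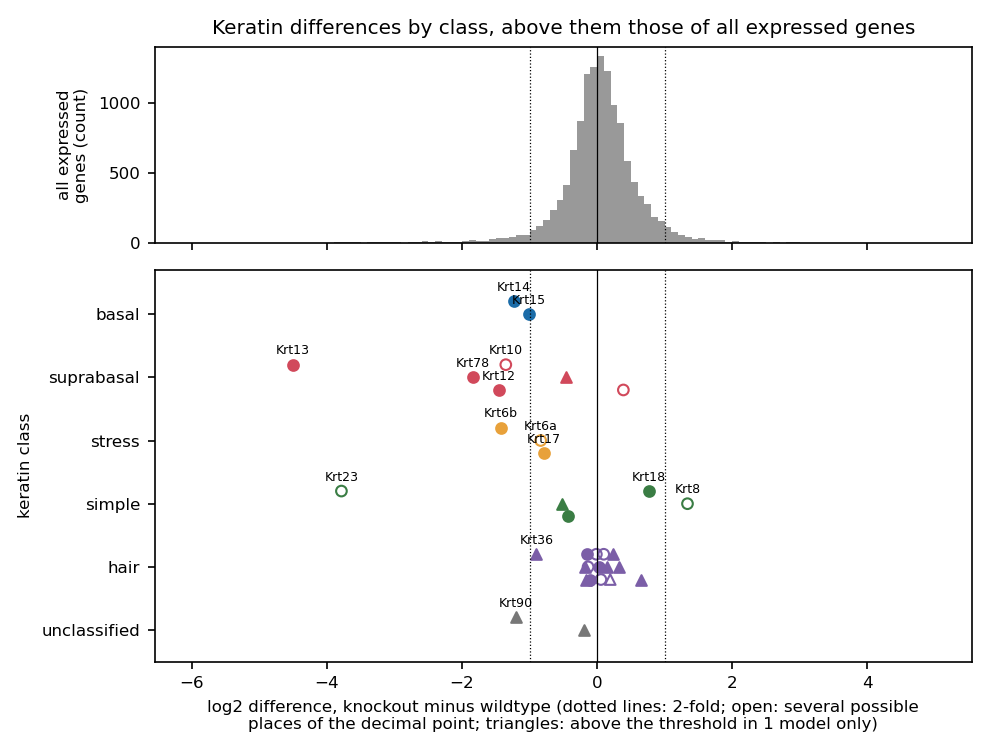
Log2 differences, knockout minus wildtype, of the 33 expressed keratins by class (lower panel; open symbols have several possible places of the decimal point, and triangles passed the threshold in 1 model only) under the distribution of 12584 expressed genes (upper panel, count of genes per bin). All basal and stress keratins shown lie below 0, simple keratins lie on both sides with Krt23 at -3.79 and Krt8 at 1.34, and all hair keratins lie inside the 2-fold lines.

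The simple epithelial keratins went both ways. Of 6 genes, 5 were expressed, and Krt23 lay past 2-fold downward and Krt8 upward, with a class median of -0.42. Krt8, the type II chain of single-layered epithelia, read 276 in the knockout model, against 109 in wildtype, 2.53-fold higher (difference 1.34). A knockout value of 2762, with a probability of 0.015, is the other possible place, and it is higher too.

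Krt18, the type I partner of Krt8, also read higher on both of its probe sets. The brighter one read 148 in the knockout model, against 86.9 in wildtype, 1.70-fold higher (difference 0.77), and the dimmer one 59.0 and 43.8 (difference 0.43), each with 1 possible place. All 9 restored and expressed keratinocyte markers read lower in the same model, and how this relates to the Krt8 and Krt18 pair was not tested.

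Krt23, a type I keratin grouped here with the simple ones, went the other way. It read 70.3 in the knockout model, against 970 in wildtype, 13.8-fold lower (difference -3.79). The other possible place, 9696 in the wildtype model with a probability of 0.013, would widen the gap. Krt7, a keratin of ducts and glands, read 61.8 in the knockout model, against 82.9 in wildtype (difference -0.42). Krt19, a type I keratin of simple epithelia and follicle stem cells, read 44.1 in the knockout model, against 63.3 in wildtype, the first under the threshold. Krt20, known from gut epithelium and Merkel cells, was below the threshold in both, with 31.7 and 45.5.

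Krt8, Krt18 and Krt20 also mark Merkel cells, the touch receptors of the skin. Of 7 Merkel cell markers that are not keratins, 5 were restored, and their intensities summed to 235 in the knockout model, against 253 in wildtype. Atoh1, the transcription factor gene that defines these cells, was below the threshold in both models, with 42.6 and 46.2, and so was Piezo2. The other 3 restored markers were expressed, at values close to the threshold. Syp read 54.2 in the knockout model, against 59.1 in wildtype, and Insm1 65.6 and 60.7. Chga, with 41.2 and 53.5, passed in wildtype only. Sox2 and Isl1 were undecided.

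**Figure D3:**
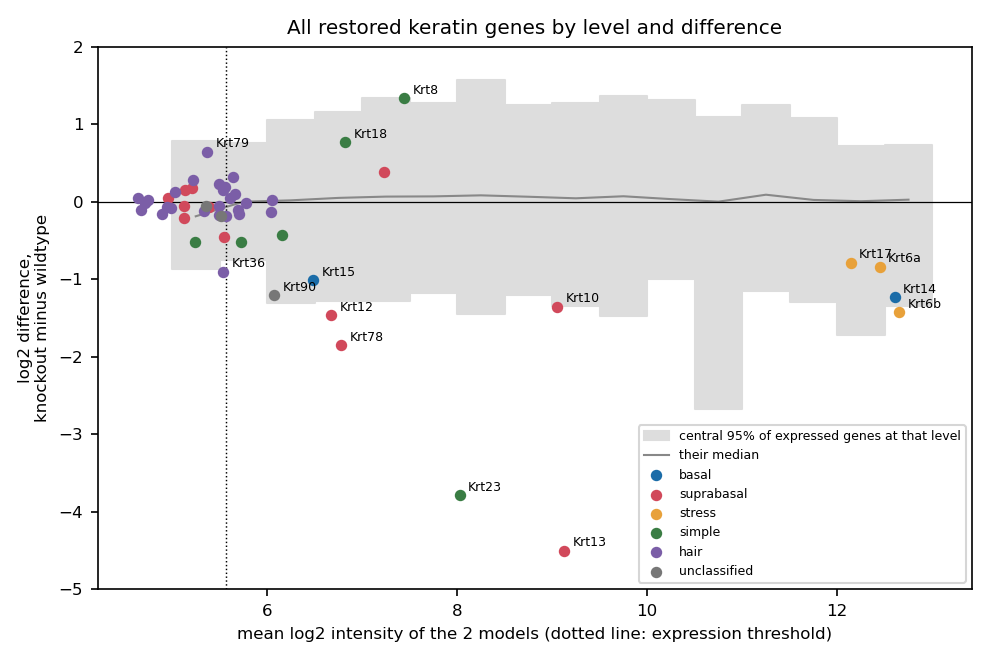
The 52 restored keratin genes by mean log2 intensity of the 2 models and log2 difference (knockout minus wildtype), coloured by class; the grey band holds the central 95% of expressed genes in each step of level and the dotted line is the expression threshold. Krt13 (-4.50), Krt23 (-3.79), Krt78 (-1.84), Krt12 (-1.46), Krt6b (-1.42), Krt10 (-1.35) and the hair keratin Krt36 lie below the band, Krt8 (1.34) lies at its upper edge, and the other hair keratins lie inside it where they are expressed.

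Hair keratins were near the background of the arrays. Of 26 genes, 15 passed the threshold in at least 1 model, and the whole class spanned 24.7 to 67.3 in the knockout model and 24.4 to 68.8 in wildtype. Of the 11 expressed keratins of the hair shaft, 5 passed in both models, and the median difference was -0.011. Krt81, a type II chain of the hair cortex, read 62.7 in the knockout model, against 68.8 in wildtype (difference -0.13). The widest gap belonged to Krt36, with 34.0 in the knockout model, against 63.5 in wildtype, the first in the background, so that it was at least 1.34-fold lower when set against the threshold.

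Of the 11 keratins of follicle sheaths and nail, 4 were expressed. Krt79, which marks the funnel of the follicle and the sebaceous duct, read 51.8 in the knockout model, against 33.0 in wildtype, under the threshold in the second. Krt42 read 67.3 and 65.9, Krt75, a companion layer keratin, 49.9 and 53.5, and Krt73 of the inner root sheath 48.8 and 41.5. The remaining 7 sheath keratins, among them Krt25, Krt27, Krt28 and Krt71 of the inner root sheath, were below the threshold in both models, at 24.4 to 45.8.

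Of the genes in no class, Krt90 read 44.4 in the knockout model, against 102 in wildtype, with 1 possible place. The knockout value lies under the threshold, so Krt90 passed through wildtype only, and set against the threshold itself it was at least 2.15-fold lower. Krt88 read 43.0 and 48.9, and Krt222 was below the threshold in both.

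Krt78 and Krt8, which lie next to each other near the end of the type II cluster, had differences of opposite sign, -1.84 and 1.34, and Krt18, the gene that follows, had 0.77. In the type I cluster the neighbours Krt13 and Krt15 had -4.50 and -1.01, and Krt42 at its end had 0.030. All of these passed the threshold in both models. By 2-fold or more, 6 of 16 expressed keratins on chromosome 11 were lower and 0 higher, and on chromosome 15 3 of 17 were lower and 1 was higher. Among all expressed genes 3.34% were lower and 3.81% higher by as much. Krt90, 1 of the 3 on chromosome 15, passed the threshold in wildtype only. Both counts include hair keratins near the background, so the clusters are not set against each other.

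**Figure D4:**
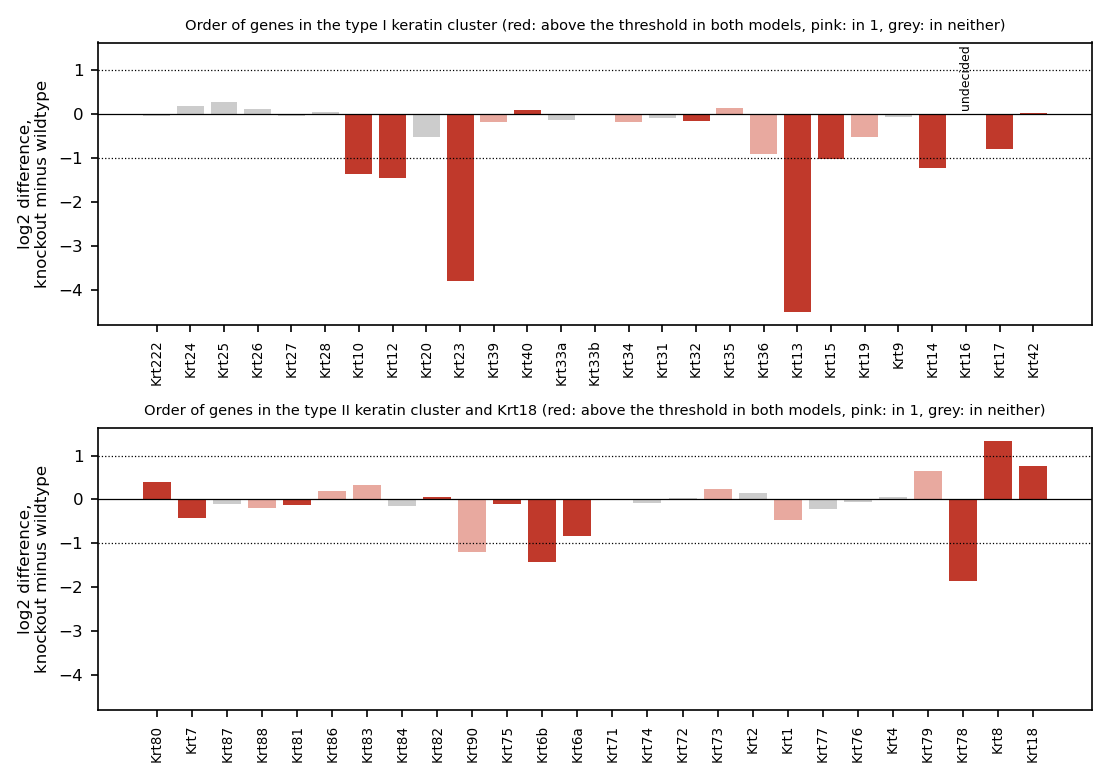
Log2 difference, knockout minus wildtype, of each member in the order of the genes in RefSeq (GRCm38.p6), type I cluster above and type II cluster with Krt18 below; red bars are genes above the threshold in both models, pink bars in 1 model only and grey bars in neither, and dotted lines mark 2-fold. Krt78 (-1.84) stands beside Krt8 (1.34).

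Plakins and proteins of the desmosomal plaque link keratin filaments to cell junctions. Of 10 expressed linker genes, 5 were at least 2-fold lower and 0 higher, beside 3.34% and 3.81% of all expressed genes, with a median of -0.99. This list, like the other gene lists here, was chosen with earlier results of these data known, so its counts are a description. Plec, Dst and Pkp2, named here after their values were seen, read higher in the knockout model by less than 2-fold. Pkp2 passed the threshold in the knockout model only, so its sign is fixed by the filter. Ppl, the periplakin gene, read 633 in the knockout model, against 2263 in wildtype, 3.58-fold lower. Dsp, which encodes desmoplakin, the protein that ties keratins to desmosomes, read 2744 and 7469, and the plakophilin gene Pkp3 read 192 and 531. Jup was undecided.

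Of 6 filament bundling and S100 fused type genes, 3 were expressed and 2 of these were at least 2-fold lower, beside 3.34% of all expressed genes. Only Rptn passed the threshold in both models. Hrnr and Flg passed in wildtype only, so their sign is fixed by the filter. Rptn, which encodes repetin of the cornified envelope, read 58.6 in the knockout model, against 1743 in wildtype, 29.7-fold lower. Hrnr, the hornerin gene, read 31.2 and 153, and Flg, the filaggrin gene whose product bundles keratins, 38.8 and 55.7, all 3 of them in the background or near it in the knockout model. Flg2, Tchh and Tchhl1 were below the threshold in both models.

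Of 18 expressed transcription factor genes known to act on keratin or epidermal genes, 9 were at least 2-fold lower and 0 higher. Among all expressed genes these shares were 3.34% and 3.81%. The median of the 18 was -0.80. These counts too are a description, as the list was chosen with earlier results of these data known. Cebpb and Hoxc13, named after their values were seen, read higher by less than 2-fold. Grhl3, a grainyhead-like factor of the epidermal barrier, read 207 in the knockout model, against 1178 in wildtype, 5.70-fold lower. Ovol1 read 77.4 and 387, and Elf3, an epithelial ETS factor, 90.7 and 352. Trp63, Klf5, Zfp750 and Notch1 were undecided and are not counted.

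Of 9 expressed intermediate filament genes outside the keratin family, 0 were 2-fold apart, and the median difference was -0.28. Vim, the vimentin gene of mesenchymal cells, read 6479 in the knockout model, against 3665 in wildtype, 1.77-fold higher. The other 8 read below 0, among them Nes, which encodes nestin (43.6 and 67.2), and the lamin gene Lmnb1 (153 and 196). Des, Nes and Lmnb2 passed the threshold in wildtype only, so their sign is fixed by the filter, and 6 of the 9 passed in both models.

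**Figure D5:**
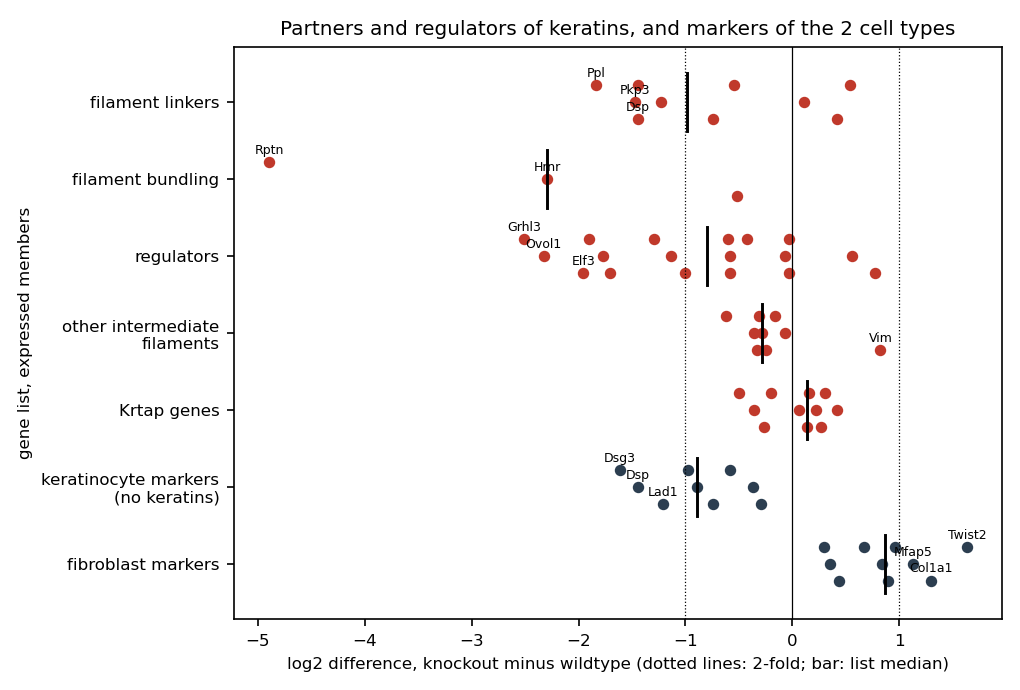
Log2 differences, knockout minus wildtype, of the expressed members of 5 lists of keratin partners and regulators (red) and 2 lists of cell type markers (blue), with a bar at each list's median and dotted lines at 2-fold. Filament bundling genes (-2.29), filament linkers (-0.99), keratinocyte markers (-0.89), regulators (-0.80) and other intermediate filaments (-0.28) have medians below 0. Krtap genes (0.14) have a median above 0, and fibroblast markers lie above 0 (0.87). The lists overlap, as Dsp and Perp are both linkers and keratinocyte markers and Grhl2 is both a regulator and a keratinocyte marker.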

How the data were processed

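RNA of 1 Itih5 knockout and 1 wildtype skin model was measured on 1 Affymetrix array each, after amplification to sense-strand cDNA and biotin labelling, per the labels' protocols. The authors deposited linear probe set intensities. The summary of probes and any normalization between arrays are steps not given in the sources used here. A decimal point was missing from 67457 of 67586 values, and 129 had kept it, with at most 2 decimals. A place was accepted if it gave 2 raised to an exponent held in single precision, written in the fewest digits that single precision needs, and if it lay between 18 and 20000 and had at least 3 decimals. All missing points had a possible place. For 21121 of 33793 probe sets (62.5%) it was the only one on both arrays. The rest took the likeliest pair by 25 rounds of expectation maximisation over mean level and absolute difference (bins of 0.5 and 0.25 log2, smoothed), kept at a probability of at least 0.95. This restored 31925 probe sets (94.5%), with 49.5 expected to be misplaced. Differences near a shift of the point by 1 digit can be hidden or created where several places are possible. The steps were tested on simulated data. Column medians were 46.3 (knockout) and 46.7 (wildtype), and no further normalization was applied.

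Platform annotation gave 1 symbol for 23521 probe sets, several for 1814, and 8458 were unnamed here. Of the named ones 23328 matched RefSeq (GRCm38.p6) by Entrez identifier. The probe set with the highest mean represented each of 20861 genes, and 12584 were expressed. All keratins outside the hair classes are named in the text, but only some hair keratins. The 3 expressed genes with the widest difference are named for the linker, bundling, transcription factor, other intermediate filament, melanocyte and Merkel cell lists. Keratinocyte and fibroblast markers are given as counts. Some further genes are named as bright, as defining a cell type, as undecided or as below the threshold. The members, classes and lists were chosen with earlier results of these data known. The range, the minimum probability and the bins were set after the values were seen. Without replicates no test was made, and genes were counted at 2-fold. Alternatives changed the filter, normalization, pseudocount, fold threshold, probe set rule and restoration. Tools were Python 3.11.15, NumPy 2.4.6, pandas 2.3.3, SciPy 1.17.1 and Matplotlib 3.10.9.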

Additional observations from a re-analysis of the deposited data

How the results depend on the processing

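The 186 differences of single keratins under alternatives kept their direction where they were at least 2-fold, and 0 of them moved by more than 1.5-fold. Most of the 186 are the main values again by construction. Only quantile normalization, the pseudocount and, for Krt18, the mean over probe sets could move a value. A pseudocount cannot change a direction, and keratins that a setting dropped are not among the 186. The count of 9 lower keratins was 7 to 10 under the settings that kept the 2-fold line. Krt15 and Krt90 left it with a pseudocount of 16 or with the 75th percentile (139.6) as threshold, and Krt16 joined it when likeliest places were taken throughout. A threshold of 1.5-fold gave 12 lower and 3 higher keratins (Krt8, Krt18 and Krt79, the last against a wildtype value under the threshold), and one of 3-fold gave 3 lower (Krt13, Krt23 and Krt78) and 0 higher, by construction. The count of higher keratins was 0 with a minimum probability of 0.99 and 0 with 1 possible place only, because Krt8 has 2 possible places. Krt23 left the lower ones under both of these settings and Krt10 under the second. The median of all expressed keratins was -1.29 with the 75th percentile as threshold, which leaves 12 genes and no hair keratin. That filter turned the median of simple keratins to 0.77, since Krt7 and Krt19 were dropped. Without a filter the suprabasal median was -0.13, since 6 background genes entered. The hair median changed sign, to -0.013 without a filter and -0.035 with 1 possible place only, from a value next to 0. No paired analysis was possible because there is 1 array in each group, which also leaves no array to drop. Values near the background have compressed differences.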

Other observations

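Many other genes of hair and skin appendages were also near background, but some were well above it. Of 51 Krtap genes, which encode the matrix proteins of the hair shaft, 47 were restored, 11 were expressed and 0 were 2-fold apart, with a median difference of 0.14. The brightest Krtap gene, Krtap4-13, read 141 in the knockout model, against 128 in wildtype. The widest difference among the expressed ones was that of Krtap4-16, with 37.5 in the knockout model, against 53.1 in wildtype. Of 10 hair follicle and matrix cell markers that are not keratins, 6 were expressed. The brightest, Sox9, read 261 in the knockout model, against 292 in wildtype. Foxn1, a transcription factor gene of hair and epidermal differentiation, read 75.02 in the knockout model, against 184 in wildtype, 2.45-fold lower. Hoxc13, a known regulator of hair keratin genes, read 87.6 and 59.6, under 2-fold, and Shh was below the threshold in both models.

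Among 7 sebocyte markers Cidea, a lipid droplet gene, was the 1 expressed member, with 69.7 in the knockout model, against 360 in wildtype, 5.17-fold lower. Of 7 melanocyte markers 4 were expressed and 2 were at least 2-fold higher, beside 3.81% of all expressed genes. Mlana read 705 in the knockout model, against 109 in wildtype, and Mitf 464 and 215. Pmel read 69.2 and 56.5, whereas Sox10 read 51.3 and 66.4. Tyr, Tyrp1 and Dct were below the threshold in both models. Of 5 endothelial markers Kdr was the 1 expressed, with 87.4 in the knockout model, against 36.1 in wildtype. Of 5 immune markers Cd68 was the 1 expressed, with 861 and 1161.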
